A study of Mus musculus with 6 samples.

Results

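Cell cycle and DNA replication genes mark cells that are copying their DNA or dividing, and 35 of them were followed in the muscle of *Tarsl2*+/+ and *Tarsl2*-/- mice. They were taken by gene symbol from a fixed list of 14 genes used mainly in S phase and 21 used mainly in mitosis, and all 35 were found among the 53084 genes of the count table. The rule itself uses no measured value, but the members were chosen with earlier results of these data known. The libraries came from muscle of male C57BL/6 mice that were 6 weeks old, with 3 libraries of *Tarsl2*+/+ mice (583, 584 and 595) and 3 of *Tarsl2*-/- mice (588, 589 and 591). *Tarsl2* encodes a threonyl-tRNA synthetase-like protein. In the *Tarsl2*-/- mice a fragment holding exon 3 had been deleted with CRISPR/Cas9 in C57BL/6J zygotes, so the deletion was present in every tissue and not in muscle fibres alone. The sources used here do not name the muscle, and p-values measure the spread between these numbered libraries. The values are the authors' counts of reads per gene, and levels are given as CPM, which is the count per 1000000 counts of the library after the TMM scaling of edgeR. Gene positions are those of the count table, in GRCm38. Below, values of *Tarsl2*+/+ libraries are in the order 583, 584 and 595, and those of *Tarsl2*-/- libraries in the order 588, 589 and 591.

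Before S phase, CDC6 helps to load the MCM2 to MCM7 helicase onto replication origins, and during S phase the polymerase clamp PCNA and the enzymes that make deoxynucleotides are needed at the moving forks. In mitosis, cyclin B with CDK1, the Aurora and Polo kinases, kinesin motors and kinetochore proteins build the spindle and separate the chromosomes. The anaphase-promoting complex has mitotic cyclins degraded. E2F factors drive many genes of the first group. The DREAM, MYB-MuvB and FOXM1 complexes act on many genes of the second through CHR elements in their promoters, which often also hold CCAAT boxes. Adult muscle fibres have left the cell cycle, so in whole muscle such transcripts are usually attributed to other cells of the tissue and to blood cell precursors.

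The promoter sequences were searched for elements known from cell cycle promoters. They were read from RefSeq on GRCm38.p6 as 250 bases before to 50 bases after the annotated start, and 29 of the 35 members had an entry. *Mcm4*, *Ccne2*, *Ccna2*, *Aurkb*, *Kif20a* and *Tpx2* had none in the table used. The 6 sequences printed belong to members whose 95% interval of the log2 fold change lay below 0, since the results below turn on them, and *Mcm4*, the seventh such gene, is among those without an entry. Capitals mark 3 motifs, searched on both strands. The CHR was searched as TTTGAA and in a second spelling as TTCGAA, and the CCAAT box by the letters of its name. The E2F site was searched first as TTCCCGC, then in another spelling as TTTGGCG, and last in the spelling TTTCGCG.
*Mcm6*, chr1:128359656-128359955, minus strand: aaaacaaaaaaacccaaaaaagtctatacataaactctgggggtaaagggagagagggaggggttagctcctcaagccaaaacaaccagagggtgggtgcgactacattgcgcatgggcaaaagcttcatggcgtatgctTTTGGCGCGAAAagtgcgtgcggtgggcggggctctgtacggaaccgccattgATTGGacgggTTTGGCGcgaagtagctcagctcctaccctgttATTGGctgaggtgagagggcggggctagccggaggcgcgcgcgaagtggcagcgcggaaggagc
*Rrm1*, chr7:102441445-102441744, plus strand: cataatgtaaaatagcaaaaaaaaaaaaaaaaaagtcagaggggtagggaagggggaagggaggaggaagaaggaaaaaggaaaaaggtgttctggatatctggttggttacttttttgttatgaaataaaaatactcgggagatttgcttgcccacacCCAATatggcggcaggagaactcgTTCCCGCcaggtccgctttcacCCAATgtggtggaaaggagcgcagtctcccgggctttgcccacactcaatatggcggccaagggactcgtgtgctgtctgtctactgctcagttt
*Rrm2*, chr12:24708004-24708303, plus strand: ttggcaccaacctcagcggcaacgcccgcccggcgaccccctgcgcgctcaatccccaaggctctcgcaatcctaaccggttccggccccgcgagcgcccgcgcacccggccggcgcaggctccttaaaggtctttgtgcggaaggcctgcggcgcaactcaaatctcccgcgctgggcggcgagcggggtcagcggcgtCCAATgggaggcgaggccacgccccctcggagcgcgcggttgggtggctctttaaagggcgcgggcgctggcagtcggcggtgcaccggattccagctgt
*Cdc6*, chr11:98907901-98908200, plus strand: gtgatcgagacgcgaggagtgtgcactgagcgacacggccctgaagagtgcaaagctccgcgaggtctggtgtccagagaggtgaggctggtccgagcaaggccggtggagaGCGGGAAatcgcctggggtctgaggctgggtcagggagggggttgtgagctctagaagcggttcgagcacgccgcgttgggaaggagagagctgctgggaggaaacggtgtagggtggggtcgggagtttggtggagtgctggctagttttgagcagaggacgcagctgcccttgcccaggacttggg
*Ccnb2*, chr9:70421505-70421804, minus strand: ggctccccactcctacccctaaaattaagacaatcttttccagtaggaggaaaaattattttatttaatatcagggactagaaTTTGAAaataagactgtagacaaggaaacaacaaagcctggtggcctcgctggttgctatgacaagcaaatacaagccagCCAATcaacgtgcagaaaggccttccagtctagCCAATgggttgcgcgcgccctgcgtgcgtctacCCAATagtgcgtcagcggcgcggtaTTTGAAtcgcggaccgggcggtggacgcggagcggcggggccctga
*Aurka*, chr2:172370521-172370820, minus strand: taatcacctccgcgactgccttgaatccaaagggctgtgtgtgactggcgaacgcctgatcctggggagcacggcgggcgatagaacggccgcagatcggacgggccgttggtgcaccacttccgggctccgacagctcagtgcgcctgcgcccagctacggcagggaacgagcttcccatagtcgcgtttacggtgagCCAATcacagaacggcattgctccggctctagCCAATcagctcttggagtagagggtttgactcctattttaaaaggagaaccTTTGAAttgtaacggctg
In the *Mcm6* sequence a pair of the E2F matches overlap. The *Cdc6* sequence lies inside the gene as placed in the count table, which begins at position 98907801. Its E2F match is thus downstream of that start. The upstream CHR match of *Ccnb2* begins 167 bases before the start and the other at base 5 after it, and the match of *Aurka* begins at base 33 after it. The CHR letters were found in 13 of 17 mitosis promoters (76.5%) and in 2 of 12 S-phase promoters (16.7%), against 19.4% of 27025 promoters of the same length. CCAAT letters were present in 15 of the 17 mitosis promoters (88.2%), in 8 of the 12 S-phase promoters (66.7%) and in 37.9% of all. For the E2F letters the order was the other way, with 6 of 12 S-phase promoters (50%), 1 of 17 mitosis promoters (5.88%), which was that of *Cdk1*, and 6.8% of all. All 13 mitosis promoters with CHR letters also held CCAAT letters, a pair that 7.7% of all promoters held. *Birc5*, *Nusap1*, *Ccne1*, *E2f1* and *Tyms* held none of the 3 marked motifs. The TATAAA letters were found in 0 of the 29, against 14.2% of all promoters. These matches describe letters in a window and were not tested as binding sites.

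The library totals lay between 16176591 and 20123767 counts, so that 3 counts correspond to 0.149 to 0.185 CPM, and 15075 genes had enough counts to be tested. *Tarsl2* had 456, 605 and 464 counts in the *Tarsl2*+/+ libraries and 40, 30 and 37 in the *Tarsl2*-/- libraries, with a log2 fold change (*Tarsl2*-/- over *Tarsl2*+/+) of -3.81 (standard error 0.16, adjusted p = 6.45e-07, edgeR's quasi-likelihood test). The tissue label was checked first on muscle fibre genes, and *Acta1*, skeletal muscle actin, had at least 370408 counts in every library. The sample records name a retinal extraction, whereas of 10 retina genes only *Rom1* (257 to 370 counts) exceeded 7 counts in any library, and *Crx*, *Nrl*, *Gngt1* and *Pde6b* were at 0 in all. Of the libraries, *Tarsl2*+/+ 583 and 595 stood apart in blood, marrow and bone transcripts, and the results are therefore also given without both of them. The title of *Tarsl2*-/- library 589 carries the prefix KOT1 in place of KO1, whose meaning is not given.

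Most of the cell cycle genes were estimated somewhat lower in *Tarsl2*-/- muscle, and no single member passed the test. The members were measured in the same libraries and chosen with earlier results known. Their estimates are therefore not separate observations, and the shared direction was described and not tested. All 35 were tested, and 0 passed an adjusted p of 0.05 in either direction in edgeR's quasi-likelihood test, against 2.27% of all tested genes called and 1.37% called lower. At an unadjusted p under 0.05, 7 members were lower and 0 higher, and DESeq2 and limma-voom, which also called 0, had 5 and 6 members lower at that level. These 7 are 20% of the members, beside 10.2% of all tested genes. The log2 fold change was below 0 for 31 members (88.6%, against 49.6% of tested genes), with a median of -0.23, a difference of -14.8%, where the median over all tested genes was 0.00253. It ranged from -0.60 for *Aurka* to 0.25 for *Kif20a*. The genotypes did not overlap for 5 members that were lower, *Mcm6*, *Rrm2*, *Cdc6*, *Bub1* and *Aurka*, which is 14.3% of the members against a background of 12.0%, and for 0 that were higher, against 12.6%. The first of these shares is close to its background, and the second is below it. The 95% intervals excluded a doubling for all 35 members and a halving for 31, and they reached between 0.18 and 0.73 to each side of the estimate on the log2 scale. Bulk libraries cannot tell fewer dividing cells from less of these RNAs per cell.

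**Figure D1:**
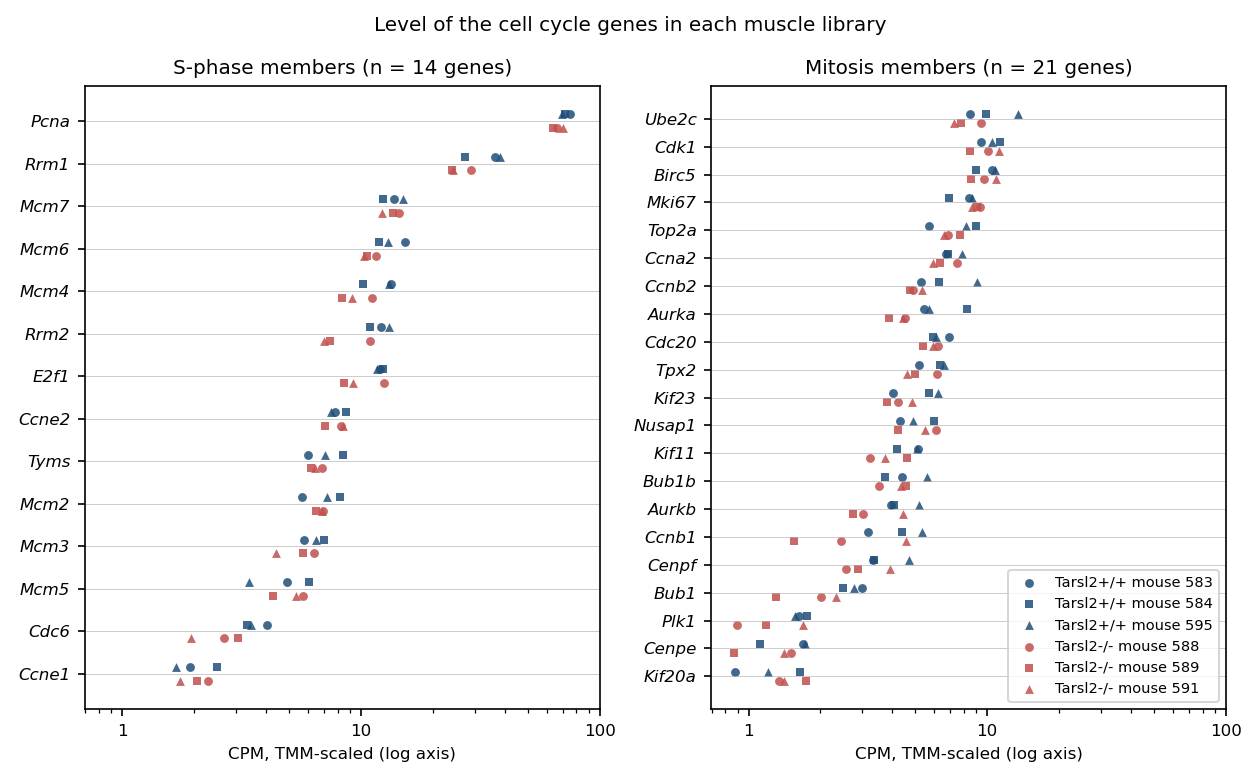
Level of each of the 35 cell cycle genes in every library, as TMM-scaled CPM on a log axis, with S-phase members on the left, mitosis members on the right and 1 symbol per library. Blue and red symbols are interleaved for most genes, while for *Rrm2*, *Cdc6*, *Mcm6*, *Aurka* and *Bub1* all 3 red *Tarsl2*-/- symbols lie to the left of the blue ones.

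Among the genes that prepare origins, *Cdc6* (ENSMUSG00000017499, chr11:98907801-98923940, plus strand), the loader of the MCM helicase, was measured at 4.03, 3.34 and 3.46 CPM in *Tarsl2*+/+ muscle and 2.67, 3.05 and 1.94 CPM in *Tarsl2*-/- muscle. Every *Tarsl2*-/- library was below every *Tarsl2*+/+ library, on 40 to 69 counts. The log2 fold change was -0.51 (standard error 0.22, adjusted p = 0.234, edgeR's quasi-likelihood test). *Mcm6* (ENSMUSG00000026355, chr1:128331590-128359664, minus strand), a helicase subunit, had 15.2, 11.9 and 13.0 CPM against 11.5, 10.7 and 10.3 CPM. The genotypes were separated here too, though *Tarsl2*+/+ 584 exceeded *Tarsl2*-/- 588 only slightly, and the log2 fold change was -0.31 (standard error 0.12, adjusted p = 0.198). For *Mcm4* (ENSMUSG00000022673, chr16:15623897-15637400, minus strand), another subunit, the values were 13.4, 10.2 and 13.1 CPM against 11.1, 8.35 and 9.18 CPM, so that *Tarsl2*+/+ 584 lay inside the range of the *Tarsl2*-/- libraries (log2 fold change -0.36, standard error 0.15, adjusted p = 0.215). The other subunits of the same ring had estimates nearer to 0 or above it, with intervals that include 0, and differences between subunits were not tested. The log2 fold change was -0.23 for *Mcm3* (95% interval -0.61 to 0.14), -0.05 for *Mcm2* (-0.40 to 0.29), -0.03 for *Mcm7* (-0.28 to 0.23) and 0.10 for *Mcm5* (-0.37 to 0.58). Summed over the 6 subunits, the level was 58.8, 55.7 and 58.2 CPM in *Tarsl2*+/+ and 56.2, 49.2 and 48.3 CPM in *Tarsl2*-/- muscle, where library 588 lay within the *Tarsl2*+/+ range. Exons of *Mcm7* share bases with *Cops6*, *Ap4m1*, *Mir25* and *Mir93*, and the counting rule for such reads is not given.

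The enzymes that supply deoxynucleotides contained the lowest adjusted p-values of the S-phase group. *Rrm2* (ENSMUSG00000020649, chr12:24708241-24714146, plus strand), the regulated small subunit of ribonucleotide reductase, had 12.1, 10.9 and 13.1 CPM in *Tarsl2*+/+ muscle and 10.9, 7.42 and 6.99 CPM in *Tarsl2*-/- muscle. Libraries 589 and 591 were clearly below all others, whereas *Tarsl2*-/- 588 was nearly level with *Tarsl2*+/+ 584. Its log2 fold change was -0.51 (standard error 0.17, adjusted p = 0.127, edgeR's quasi-likelihood test). *Rrm1* (ENSMUSG00000030978, chr7:102441695-102469771, plus strand), the large catalytic subunit of the same enzyme, had 36.4, 27.3 and 38.1 CPM against 29.0, 24.2 and 24.4 CPM. Here *Tarsl2*+/+ 584 was below *Tarsl2*-/- 588, and the log2 fold change was -0.39 (standard error 0.13, adjusted p = 0.131). *Tyms*, thymidylate synthase, gave 6.01, 8.44 and 7.08 CPM against 6.85, 6.17 and 6.41 CPM, with overlapping genotypes and a log2 fold change of -0.15 (95% interval -0.49 to 0.19). *Rrm1* passed the threshold when *Tarsl2*+/+ library 584 was left out (log2 fold change -0.53, adjusted p = 0.0288), and *Rrm2* when *Tarsl2*-/- library 588 was left out (-0.74, adjusted p = 0.0399), both in edgeR's test. Without *Tarsl2*+/+ 583 neither passed in that test, at -0.34 for *Rrm1* and -0.51 for *Rrm2* (adjusted p = 0.345 and 0.279).

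*Pcna*, the sliding clamp, was the most precisely measured member, on 1025 to 1442 counts. Its levels were 75.3, 71.6 and 69.5 CPM in *Tarsl2*+/+ muscle and 66.4, 63.9 and 70.0 CPM in *Tarsl2*-/- muscle. Only *Tarsl2*-/- 591 reached the *Tarsl2*+/+ range, and the log2 fold change of -0.11 had a 95% interval from -0.29 to 0.07. *E2f1*, a transcription factor of the G1 to S transition, was nearly constant in *Tarsl2*+/+ muscle at 12.0, 12.4 and 11.7 CPM, but was spread over 12.5, 8.47 and 9.27 CPM in *Tarsl2*-/- muscle. The highest value of all 6 belonged to a *Tarsl2*-/- library, and the log2 fold change was -0.25 (-0.57 to 0.07). Both E cyclins, partners of CDK2 at S-phase entry, had estimates close to 0. These were -0.01 for *Ccne1* (-0.56 to 0.55) and -0.01 for *Ccne2* (-0.30 to 0.29), and part of *Ccne2* shares exon bases with *Ints8*. The 14 S-phase members together summed to 214, 201 and 210 CPM in *Tarsl2*+/+ and 195, 171 and 178 CPM in *Tarsl2*-/- muscle, without overlap. *Pcna* and *Rrm1* make up much of these sums, and the remaining 12 genes gave 103, 102 and 103 CPM against 99.7, 83.4 and 83.1 CPM, so that 588 lay near the *Tarsl2*+/+ libraries and the other two below.

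Of the kinases and cyclins of mitotic entry, *Aurka* (ENSMUSG00000027496, chr2:172356190-172370535, minus strand), the Aurora kinase of the centrosome and spindle poles, had the lowest estimate and the smallest adjusted p of all members. It had 5.43, 8.22 and 5.72 CPM in *Tarsl2*+/+ muscle and 4.51, 3.86 and 4.42 CPM in *Tarsl2*-/- muscle, on 62 to 155 counts. The genotypes were separated, and *Tarsl2*+/+ 584 was well above its own group. Without 584 the log2 fold change of *Aurka* was -0.38, and without *Tarsl2*+/+ 583 it was -0.71 (adjusted p = 0.245 and 0.165, edgeR's test). With all libraries the log2 fold change was -0.60 (standard error 0.19, 95% interval -1.02 to -0.18, adjusted p = 0.119, edgeR's quasi-likelihood test). *Ccnb2* (ENSMUSG00000032218, chr9:70407692-70421547, minus strand), a B cyclin, had 5.25, 6.26 and 9.07 CPM against 4.90, 4.74 and 5.34 CPM. Its group difference leaned on *Tarsl2*+/+ 595, while 583 lay within the *Tarsl2*-/- range (log2 fold change -0.46, standard error 0.20, adjusted p = 0.235). *Ccnb1*, the other B cyclin, was the most variable member in *Tarsl2*-/- muscle, at 2.45, 1.56 and 4.56 CPM beside 3.15, 4.40 and 5.35 CPM in *Tarsl2*+/+ muscle. With these values its log2 fold change of -0.57 had a 95% interval from -1.30 to 0.16. Processed copies of both cyclin genes, *Ccnb2-ps* and *Ccnb1-ps*, had 12 to 19 and 2 to 8 counts, and how reads were divided between a gene and its copy is not given.

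*Cdk1*, the kinase that both B cyclins activate, had 9.40, 11.3 and 10.5 CPM against 10.1, 8.47 and 11.2 CPM, fully overlapping, with a log2 fold change of -0.06 (-0.36 to 0.24). The kinase was estimated near 0 and both B cyclins lower, and the differences between these estimates were not tested. *Ccna2*, the cyclin of S phase and early mitosis, gave -0.12 (-0.45 to 0.20), and shares part of its exons with *Exosc9*. *Plk1*, the Polo kinase, rested on 16 to 35 counts, with a log2 fold change of -0.38 (-1.03 to 0.27).

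**Figure D2:**
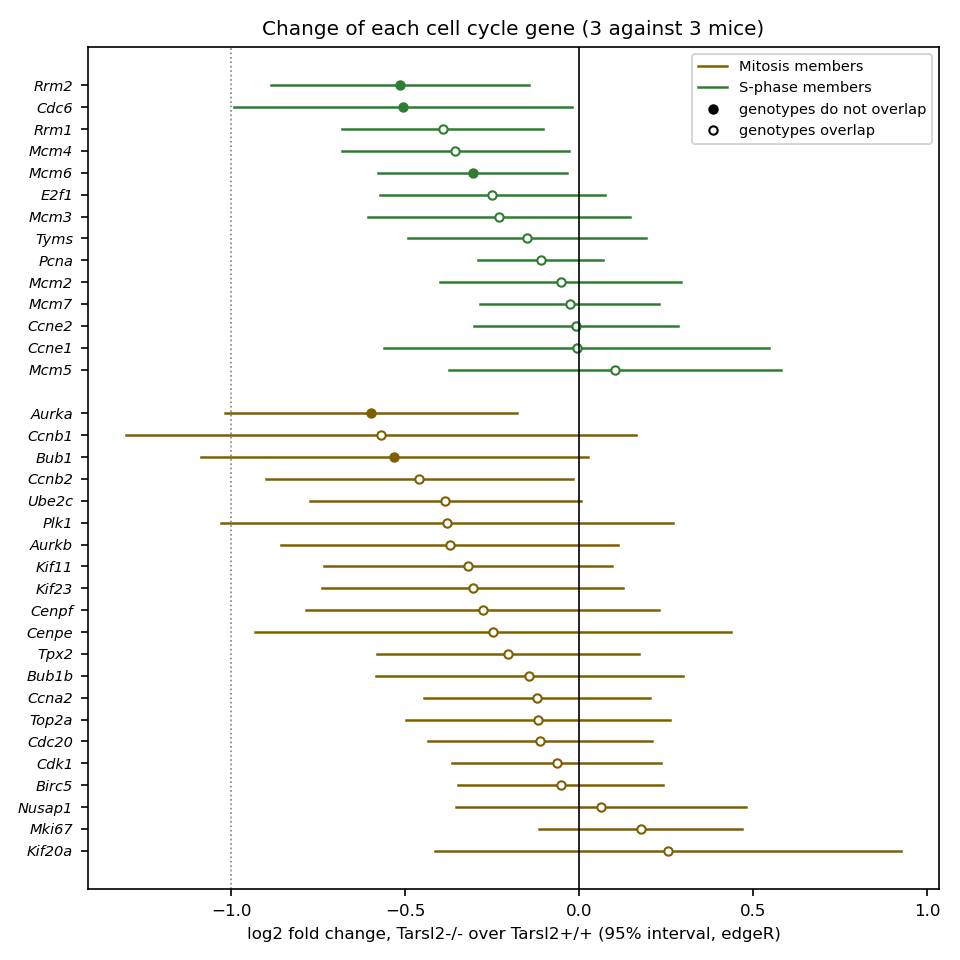
Log2 fold change of each cell cycle gene, *Tarsl2*-/- over *Tarsl2*+/+, with its 95% interval from edgeR, ordered within the S-phase and mitosis groups. Filled points are the 5 members whose genotypes do not overlap, the solid line marks no difference and the dotted line a halving, and 31 of 35 points lie left of the solid line.

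The chromosomal passenger genes and chromosome proteins had estimates on both sides of 0. *Aurkb*, the kinase of the passenger complex, gave -0.37 on the log2 scale (95% interval -0.86 to 0.11), and *Birc5*, survivin, its partner, -0.05 (-0.35 to 0.24). *Top2a*, which untangles sister chromatids, gave -0.12 (-0.50 to 0.26). *Mki67*, the source of the Ki-67 antigen that marks cycling cells, had 8.35, 6.90 and 8.65 CPM in *Tarsl2*+/+ muscle and 9.36, 9.03 and 8.64 CPM in *Tarsl2*-/- muscle. It was one of the 4 members estimated higher, at 0.18 (-0.11 to 0.47, adjusted p = 0.501, edgeR's quasi-likelihood test), with *Tarsl2*-/- 591 just inside the *Tarsl2*+/+ range.

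Among the spindle genes, *Kif11*, the motor that pushes the poles apart, was estimated at -0.32 (-0.73 to 0.10) and *Kif23*, a motor of the central spindle, at -0.31 (-0.74 to 0.13). *Tpx2*, the activator of Aurora A on the spindle, followed at -0.20 (-0.58 to 0.17). *Nusap1*, a microtubule-binding protein, and *Kif20a*, a motor of cytokinesis, were estimated higher at 0.06 (-0.36 to 0.48) and 0.25 (-0.41 to 0.92). The value of *Kif20a* rested on 15 to 31 counts. In the GENCODE vM21 annotation 29.3% of its exon bases are shared with *Cdc23*, but the gene is longer there than in the count table (4338 against 3796 bases).

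The spindle checkpoint kinase *Bub1* (ENSMUSG00000027379, chr2:127801122-127831865, minus strand) had 2.98, 2.49 and 2.78 CPM in *Tarsl2*+/+ muscle and 2.01, 1.31 and 2.33 CPM in *Tarsl2*-/- muscle, on 21 to 53 counts. The genotypes did not overlap, and the log2 fold change was -0.53 (-1.09 to 0.02, adjusted p = 0.274, edgeR's quasi-likelihood test). Its relative *Bub1b*, which encodes BUBR1, gave -0.14 (-0.58 to 0.30) with overlapping genotypes. The kinetochore genes *Cenpf* and *Cenpe* gave -0.28 (-0.78 to 0.23) and -0.25 (-0.93 to 0.44), the latter on 14 to 33 counts.

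*Cdc20*, the activator of the anaphase-promoting complex, gave -0.11 (-0.43 to 0.21), with 6.95, 5.94 and 6.08 CPM against 6.24, 5.36 and 5.92 CPM. *Ube2c*, a ubiquitin-conjugating enzyme of the same complex, had 8.47, 9.92 and 13.5 CPM against 9.41, 7.79 and 7.28 CPM, so that *Tarsl2*-/- 588 exceeded *Tarsl2*+/+ 583. Its log2 fold change was -0.38 (-0.77 to 0.01). Its last exon in transcript Ube2c-201, chr2:164777190-164778822 in GRCm38 (1633 bases, plus strand), shares bases with 5 of the 6 exons of *Tnnc2* on the minus strand. *Tnnc2*, troponin C of fast muscle, had only 2 to 4 counts in any library, so the counts listed for *Ube2c* are uncertain.

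Over the 21 mitosis members, 18 were estimated lower, with a median log2 fold change of -0.25, and over the 14 S-phase members 13, with a median of -0.19. The mitosis sum was 107, 118 and 131 CPM in *Tarsl2*+/+ and 106, 96.3 and 109 CPM in *Tarsl2*-/- muscle. *Tarsl2*-/- 591 exceeded *Tarsl2*+/+ 583, so this sum overlapped, unlike that of the S-phase members. The sum over all 35 was 322, 319 and 342 CPM against 301, 268 and 287 CPM, a difference of the means of -13.0%.

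The members were scarce in this tissue. The lowest count of any member in any library was 14 and the highest 1442, and the mean level in *Tarsl2*+/+ muscle ran from 1.24 CPM for *Kif20a* to 72.1 CPM for *Pcna*, with a median of 6.46. Per kilobase of gene length and over all 6 libraries, *Pcna* had 28.9 CPM, the next being *Ccnb2* at 3.87, *Rrm2* at 3.70 and *Ube2c* at 3.61, which lay close together. The lowest were *Cenpf* at 0.224 and *Cenpe* at 0.161 CPM per kilobase. Between libraries of one genotype the coefficient of variation of a member had a median of 14.6% in *Tarsl2*+/+ and 13.6% in *Tarsl2*-/- muscle. Library 589 held the lowest value of 16 members, 591 that of 8 and 588 that of 4, whereas the highest value came from *Tarsl2*+/+ 595 in 13 members, 584 in 10 and 583 in 7. Without library 589 the median log2 fold change was -0.18, and without 595 it was -0.14, with 28 and 30 members lower.

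Further genes of the cell cycle were grouped in 4 lists, and differences between lists were not tested. Of 64 other mitosis genes tested, 50 were estimated lower with a median of -0.19, and 1 was called, *Stmn1*, the microtubule regulator stathmin, which fell by 0.42 on the log2 scale (678, 775 and 843 counts against 592, 474 and 639 counts, adjusted p = 0.0348, edgeR's quasi-likelihood test). Their sum was 411, 433 and 452 CPM in *Tarsl2*+/+ and 388, 359 and 409 CPM in *Tarsl2*-/- muscle, again without overlap. Of 46 other DNA replication genes, 29 were estimated lower with a median of -0.06, and the 1 called gene, *Pold2*, a subunit of DNA polymerase delta, rose by 0.46 (370, 437 and 375 counts against 496, 490 and 632 counts, adjusted p = 0.0348). Over all 4 lists, 96 of 143 tested genes were estimated lower, with a median of -0.10. *Stmn1* and *Pold2* were also called by DESeq2 and limma-voom, and neither was called in edgeR's test with any single library other than *Tarsl2*+/+ 584 left out, where 0 genes of these lists were called in either direction. Their estimates in those fits stayed between -0.46 and -0.37 for *Stmn1* and between 0.40 and 0.51 for *Pold2*.

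Of 20 transcription factors and pocket proteins of the cell cycle, 12 were estimated higher and 0 were called, at a median of 0.08. Their sum was 376, 388 and 383 CPM in *Tarsl2*+/+ and 413, 398 and 398 CPM in *Tarsl2*-/- muscle, higher without overlap (5.5% between the means). The genotypes did not overlap for 4 of the 20 genes that were higher and 1 that was lower. Over all tested genes, 12.6% were higher and 12.0% lower without overlap, and the difference from these shares was not tested. Within this list, *Foxm1* and *Mybl2*, whose products act on mitosis genes, had estimates on opposite sides of 0. *Foxm1* gave -0.23 (34 to 48 counts) and *Mybl2*, B-MYB, 0.68 (10 to 28 counts, adjusted p = 0.291, edgeR's quasi-likelihood test), while *Rb1*, the retinoblastoma protein gene, gave 0.06. Of 13 G1 cyclins, kinases and CDK inhibitors, 9 were estimated lower and 0 were called. In this list *Ccnd1*, *Ccnd2* and *Ccnd3*, the D cyclins, gave -0.15, 0.12 and 0.21, and *Cdk4* and *Cdk2*, the G1 kinases, -0.05 and -0.02. The inhibitor genes *Cdkn1a* (p21) and *Cdkn1b* (p27) gave 0.36 (adjusted p = 0.150) and -0.23 (adjusted p = 0.277). At an unadjusted p under 0.05, the same test had 1 transcription factor gene higher, and 1 G1 gene lower and 2 higher. DESeq2 and limma-voom called 0 genes of both lists.

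**Figure D3:**
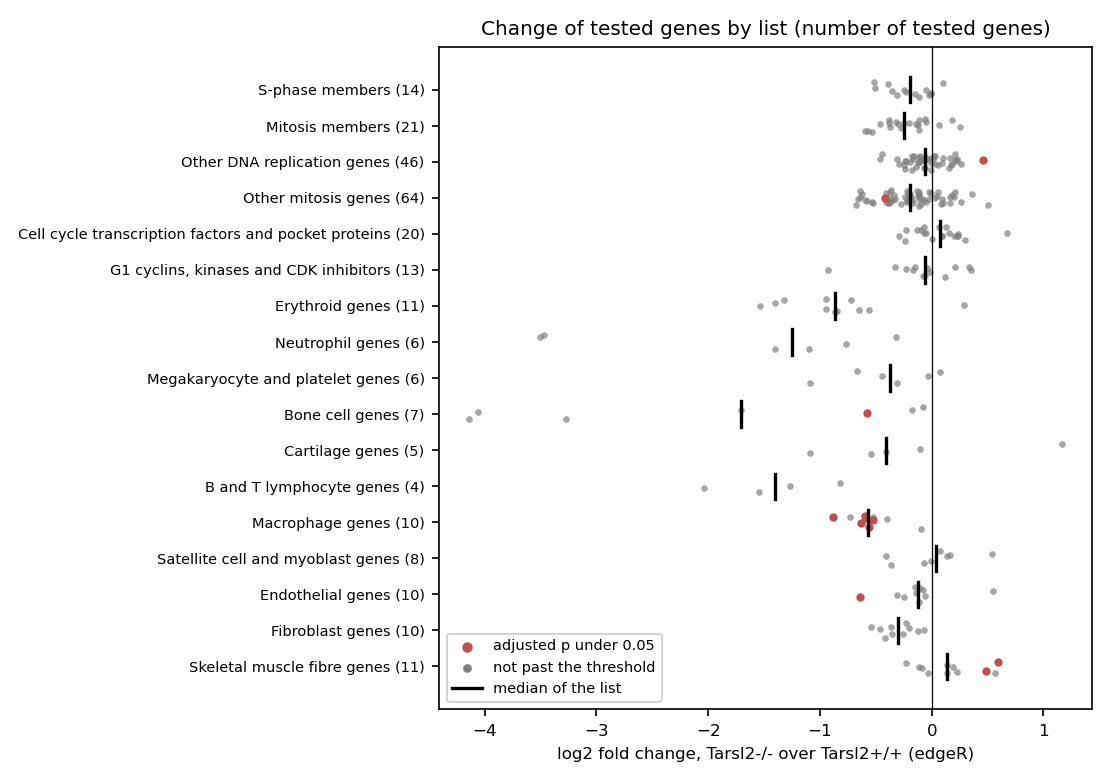
Log2 fold change of every tested gene by list, *Tarsl2*-/- over *Tarsl2*+/+, with the median of each list as a bar and genes past the threshold in red. The S-phase and mitosis members centre at -0.19 and -0.25 with no red point, next to medians of -0.87 for erythroid, -1.25 for neutrophil and -0.57 for macrophage genes.

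Genes of blood, marrow and other cells were read beside the members because many of these cells, or their precursors, divide. All 4 haemoglobin genes of the erythroid list were abundant in every library, and *Hbb-bs*, adult beta-globin, had 77735, 48882 and 115584 counts in *Tarsl2*+/+ and 49361, 40386 and 56270 counts in *Tarsl2*-/- muscle. The summed erythroid level (21 genes) was 7214, 4749 and 10391 CPM in *Tarsl2*+/+ and 4401, 4168 and 4538 CPM in *Tarsl2*-/- muscle, without overlap. Of 11 erythroid genes tested, 10 were estimated lower and 0 were called in edgeR's test, while DESeq2 called 1 and limma-voom 0. At an unadjusted p under 0.05 in edgeR's test 7 were lower, beside 10.2% of all tested genes. That test called 6 genes of the list lower without *Tarsl2*+/+ 584, 0 without any other single library, and 8 with no filter beyond 1 count. *Hba-a1*, alpha-globin, had 27326, 22284 and 47629 counts against 16294, 14453 and 23070. Among the membrane and haem synthesis genes of late erythroid cells, *Slc4a1* and *Alas2* gave log2 fold changes of -1.53 and -0.95 (adjusted p = 0.0846 and 0.172, edgeR's quasi-likelihood test). *Klf1* and *Gata1*, which mark nucleated precursors, had at most 8 counts in any library.

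A further fit used the mean log2 CPM of the 11 tested erythroid genes in each library as a covariate. The median of the members was then -0.10 in place of -0.23, and 27 of 35 were estimated lower. In that fit 15 genes of the whole table were called, 7 lower and 8 higher. The erythroid sum is itself separated by genotype, so the part of the erythroid level and that of the genotype cannot be told apart.

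The neutrophil list (22 genes) separated single libraries and not the genotypes. It summed to 83.7, 9.98 and 29.7 CPM in *Tarsl2*+/+ and 9.36, 9.97 and 10.1 CPM in *Tarsl2*-/- muscle. Calprotectin gene *S100a8* had 592, 7 and 129 counts against 20, 16 and 32, and the granule gene *Camp* 96, 2 and 47 counts against 1, 1 and 3. The partner of *S100a8*, *S100a9*, had 411, 15 and 84 counts against 15, 12 and 19. All 6 tested genes of the list were estimated lower and 0 were called in edgeR's test, while DESeq2 called 1 and limma-voom 0. At an unadjusted p under 0.05 in edgeR's test 3 were lower, beside 10.2% of all tested genes. That test called 4 genes of the list lower without *Tarsl2*+/+ 584, 0 without any other single library, and 6 with no filter beyond 1 count. The granule genes *Ngp* and *Ltf* had at most 38 and 12 counts, both in *Tarsl2*+/+ 583, and *Lcn2* 8 to 16 counts in any library. *Ly6g*, a defining surface marker, had 2 counts in *Tarsl2*+/+ 583 and 0 elsewhere. Of the promyelocyte genes, *Mpo* and *Elane* had 3 to 10 counts and *Prtn3* 7 to 33 counts, and of the B cell precursor genes *Vpreb1* had 1 to 6 counts, while *Rag1* had 2 counts in 583 and 0 in the other libraries. Their sums ranged from 1.43 to 3.15 CPM and from 6.31 to 10.3 CPM in *Tarsl2*+/+ muscle, and from 1.17 to 2.49 CPM and from 3.05 to 7.63 CPM in *Tarsl2*-/- muscle.

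*Tarsl2*+/+ 584 matched the *Tarsl2*-/- libraries in neutrophil level, at 9.98 CPM, and was near them in erythroid level. Its S-phase sum of 201 CPM and its mitosis sum of 118 CPM were above those of every *Tarsl2*-/- library. The same held for its macrophage, bone cell and erythroid sums of 1532, 119 and 4749 CPM, but not for its lymphocyte sum of 4.35 CPM. Leaving out *Tarsl2*+/+ 583 and 595 together left this 1 library against 3, so that the spread came from the *Tarsl2*-/- libraries alone and the *Tarsl2*+/+ library was assumed to vary like them. The median of the members was then -0.24, with 30 of 35 estimated lower, which restates the level of 584, and 0 were called, beside 10 genes of the whole table. With the neutrophil level as a covariate the median was -0.22, and 31 of 35 were estimated lower. At an unadjusted p under 0.05 in edgeR's test, 1 member was lower in that fit, against 7 without the covariate. Calls over the whole table went from 342 to 44.

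**Figure D4:**
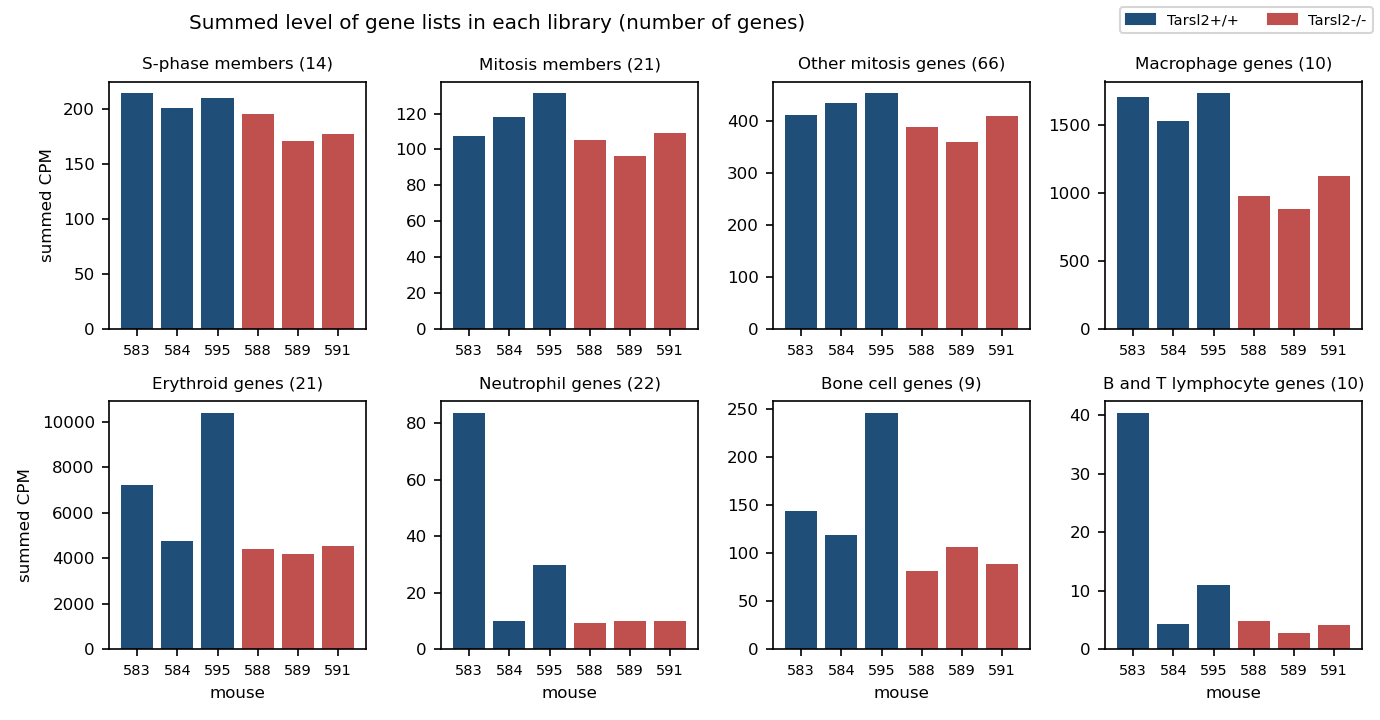
Summed TMM-scaled CPM of 8 gene lists in each library, with bars from 0, blue for *Tarsl2*+/+ and red for *Tarsl2*-/-, and the number of genes in each title. Mouse 584 is within the range of the red bars for neutrophil (9.98 CPM) and lymphocyte genes (4.35 CPM). Its bar is above the red ones in the other panels, among them S-phase members (201 CPM), mitosis members (118 CPM) and macrophage genes (1532 CPM).

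The following lists of other cell types also had a lower mean sum in *Tarsl2*-/- muscle, and their part in the result was not tested. The 10 macrophage genes summed to 1703, 1532 and 1733 CPM in *Tarsl2*+/+ and 980, 885 and 1124 CPM in *Tarsl2*-/- muscle, and 6 of 10 were called lower, among them *Lyz2*, lysozyme, which fell by 0.89 on the log2 scale (adjusted p = 0.0040, edgeR's quasi-likelihood test), *Csf1r*, the receptor that macrophages need, and *C1qa*, *C1qb* and *C1qc*, subunits of complement C1q. The sum of the 10 fibroblast genes was also lower without overlap (11612 to 13624 CPM against 9606 to 11221 CPM), with 0 called by edgeR and limma-voom and 5 by DESeq2. At an unadjusted p under 0.05 in edgeR's test 5 were lower, beside 10.2% of all tested genes. Bone cell genes summed to 119 to 246 CPM against 81.4 to 106 CPM, with *Ctsk*, the protease of osteoclasts, called lower (-0.58, adjusted p = 0.0268). Lymphocyte genes summed to 4.35 to 40.3 CPM against 2.74 to 4.73 CPM, with overlap. Megakaryocyte genes summed to 123 to 144 CPM against 97.1 to 116 CPM, with *Pf4*, platelet factor, at -0.31 on the log2 scale (adjusted p = 0.130, edgeR's test). The sums of the cartilage (30.2 to 56.8 CPM against 24.1 to 34.4 CPM) and endothelial genes (242 to 268 CPM against 197 to 254 CPM) overlapped too, with *Cdh5*, an endothelial cadherin, called lower (-0.64, adjusted p = 0.0093, edgeR's test). With *Tarsl2*+/+ 583 left out, *Lyz2* was the only one of these called genes to remain past the threshold, though the estimates of *C1qa* (-0.61), *C1qc* (-0.61), *Csf1r* (-0.50) and *Cdh5* (-0.63) were close to those with all libraries, and calls over the whole table went from 342 to 81. With 583 and 595 left out together 0 remained, at estimates between -0.74 for *Lyz2* and *Cdh5* and -0.29 for *Adgre1*, a macrophage receptor, and 10 genes of the whole table were called.

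The satellite cell and myoblast genes, which belong to the muscle's own dividing lineage, were estimated lower in 4 and higher in 4 of 8 tested, and 0 were called by edgeR, DESeq2 or limma-voom, with 0 at an unadjusted p under 0.05 in edgeR's test. *Pax7*, the satellite cell factor, had 54, 67 and 46 counts in *Tarsl2*+/+ and 40, 28 and 63 counts in *Tarsl2*-/- muscle (log2 fold change -0.36, adjusted p = 0.478, edgeR's quasi-likelihood test). *Myod1* and *Myog*, factors of activated and differentiating myoblasts, gave 0.07 and -0.07. Of 11 muscle fibre genes tested, 2 were called and both were higher, *Ckm*, muscle creatine kinase, which rose by 0.49 (adjusted p = 0.0433), and *Myh1*, a fast myosin, which rose by 0.59 (adjusted p = 0.0150). Without *Tarsl2*+/+ 583 neither was past the threshold, at estimates of 0.52 and 0.51. *Ckm* was past it without 584 alone of the single libraries, with estimates between 0.42 and 0.53, and not with upper quartile scaling (0.47) or at least 10 counts in every library (0.49), and *Myh1* was also not past it without 589 (0.56).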

How the data were processed

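RNA was taken from muscle of 3 *Tarsl2*+/+ and 3 *Tarsl2*-/- mice. According to the methods, libraries were stranded and poly(A)-selected, and paired-end reads were mapped with HISAT2 to mm10; the submitters' processing notes instead name Bowtie 0.12.2 and mm8. The table's coordinates equal those of GENCODE vM21 (GRCm38) for 34 of the 35 members. The authors deposited whole-number counts per gene, without normalization; the counting tool, annotation and use of strand are not given in the sources used here. The gene length deposited by the authors in the same table is in bases and was used for levels per kilobase.

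Samples were grouped by the genotype in their labels. Genes were kept by filterByExpr (minimum count 10, minimum total 15), which left 15075, given TMM factors and fitted in edgeR 4.0.16 (glmQLFit, then glmQLFTest) under R 4.3.3, with Benjamini-Hochberg adjustment over all tested genes and a threshold of 0.05. Standard errors were derived from the log2 fold change and its F statistic. The common biological coefficient of variation was 12.1%, and each pair of libraries of one genotype differed beyond counting noise, the smallest chi-square per gene being 13. Depth floors cover counting error only. The scripts were tested on simulated data. Members and gene lists were chosen with earlier results of these data known, and all lists other than the members were written by hand. Named genes were all members, the called genes of each list (at most 5 per direction) and fixed examples; those named outside this rule (*Acta1*, *Ly6g*, *Tnnc2*, the retina genes, processed copies and genes sharing exons with members) were chosen after their values were seen. Some results for single genes are not shown. Alternatives were DESeq2 1.42.0, limma-voom (limma 3.58.1), RLE and upper quartile scaling, other filters on low counts, the erythroid or neutrophil level as a covariate, and leaving out each library. Each covariate was the mean log2 CPM of the tested genes of its list. The table also holds 448 unannotated transcribed regions with an identifier but no gene name, which took 0.114% to 0.128% of the counts and were kept in library sizes and tests.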

Additional observations from a re-analysis of the deposited data

How the results depend on the processing

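For the 35 members, 0 were called by DESeq2, limma-voom, RLE or upper quartile scaling, at least 10 counts in every library or on average, either covariate, and with *Tarsl2*+/+ 583 and 595 left out together, an alternative chosen after seeing the data that leaves 1 *Tarsl2*+/+ library. With no filter beyond 1 count, 3 were called lower, *Rrm1*, *Rrm2* and *Aurka* (adjusted p = 0.0129, 0.0109 and 0.0269, edgeR's quasi-likelihood test). Leaving out each library in turn, between 0 and 1 was called, and the median log2 fold change lay between -0.26 and -0.14. With the erythroid covariate the median was -0.10. The direction of 10 members changed with that covariate, *Mcm7* (0.10), *Birc5* (0.20), *Ccnb2* (0.010), *Bub1b* (0.28), *Aurkb* (0.052), *Cenpf* (0.22), *Cenpe* (0.25), *Nusap1* (-0.046), *Mcm5* (-0.35) and *Kif20a* (-0.056). With the neutrophil covariate it changed for *Mcm7* (0.030), *Birc5* (0.11), *Cenpe* (0.13), *Nusap1* (-0.082), *Mcm5* (-0.027) and *Kif20a* (-0.12). Without 583 and 595 it changed for *Mcm7* (0.12), *Birc5* (0.11), *Bub1b* (0.15), *Cenpe* (0.19), *Nusap1* (-0.18), *Mcm5* (-0.24) and *Kif20a* (-0.15). Leaving out single libraries, the estimates of *Mcm7* (-0.10 to 0.039), *Birc5* (-0.15 to 0.031), *Bub1b* (-0.27 to 0.033), *Nusap1* (-0.053 to 0.20), *Mcm5* (-0.10 to 0.31), *Cdk1* (-0.17 to 0.036), *Ccne2* (-0.056 to 0.064), *Top2a* (-0.29 to 0.017), *Mcm2* (-0.19 to 0.070) and *Ccne1* (-0.13 to 0.17) crossed 0.

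In the other cell cycle lists, genes called lower numbered 2 by DESeq2, 2 with no filter and 0 without 583 and 595, and 0 were called higher without both. Leaving out single libraries gave 0 to 2 lower and 0 to 1 higher, with calls only without *Tarsl2*+/+ 584. In the other cell type lists, 8 were called lower, 20 by DESeq2, 46 with no filter, 0 without 583 and 595, and 1 to 28 leaving out single libraries, the lowest without *Tarsl2*+/+ 583 and the highest without *Tarsl2*+/+ 584. Genes called higher there numbered 2, 1 with upper quartile scaling, 4 with no filter, 1 with 10 counts in every library, 0 without 583 and 595, and 0 to 4 leaving out single libraries. The cause was not tested for these shifts. No paired analysis was possible because the libraries of the genotypes share no replicate number. Depth limited *Kif20a*, *Cenpe* and *Plk1* most, with 14 to 35 counts per library. Over the whole table, 342 genes were called, 719 by DESeq2 and 1437 with no filter.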

Other observations

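The GENCODE vM21 annotation places 9 of the 35 members over exons of another gene. The share of exon bases was 17.4% for *Ccne2* with *Ints8*, 12.5% for *Ccna2* with *Exosc9* and 7.25% for *Mcm7* with *Ap4m1*, all on opposite strands. *Nusap1* shares 4.24% with *Oip5* and *Cdc20* 2.84% with *Elovl1*. The overlap of *Ube2c* with *Tnnc2* covers 592 bases, which is 22.8% of the exon bases of *Ube2c* and 74% of those of *Tnnc2*.

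Processed copies of members that could take up reads had 10 to 25 counts for *Pcna-ps2*, 12 to 19 for *Ccnb2-ps* and 2 to 8 for *Ccnb1-ps*. In *Tarsl2*+/+ 583, *Ccnb2-ps* had 18 counts beside 90 of *Ccnb2*, and in *Tarsl2*-/- 588 it had 18 beside 88. *Ccnb1-ps* had 8 counts beside 44 of *Ccnb1* in *Tarsl2*-/- 588 and 5 beside 25 in 589. Whether reads were split between a gene and its copy is not given in the sources used here.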
